A study of Mus musculus with 8 samples.

Results

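The lysosome is the acidic compartment in which cells break down proteins, glycans and lipids, and autophagy is the process that wraps cytoplasm, lipid droplets or mitochondria in a double membrane and delivers them to it. Soluble hydrolases do the degrading, membrane proteins form the boundary and the channels of the organelle, and the Atg8 proteins (the LC3 and GABARAP families) coat the forming autophagosome. Transcription factors of the MiT/TFE family, with TFEB as the best known, bind E-box motifs in front of many of these genes when the growth-sensing kinase complex mTORC1 is low. In brown and beige fat, autophagy is known as the route by which mitochondria are removed when the demand for heat falls.

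A set of 35 lysosome and autophagy genes was taken from the deposited count table of interscapular brown fat by gene symbol, and all 35 were found among its 54532 genes. They comprise 18 hydrolases and their cofactors, 4 lysosomal membrane proteins, 3 MiT/TFE transcription factors and 10 autophagy factors. Brown fat RNA came from 7-month-old male mice on normal chow that spent 24 h at 4 °C in metabolic cages. The control group, 4 mice, carried floxed alleles of Pparg, the nuclear receptor gene that drives fat cell formation, and no Cre. The other 4 carried the same floxed alleles together with Myl1-Cre, a recombinase under the control of the myosin light chain gene Myl1, so that Pparg would be cut in cells with a Myl1-positive history and in no others. Not given in the sources used here are strain and how many brown fat cells this reaches.

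The libraries held 12226608 to 19268945 counts. Levels are in CPM (read counts relative to the library total, scaled with TMM), as mean ± SD of 4 mice where a group is given. Fold changes are log2 of the second group over the control ± SE, from edgeR's quasi-likelihood test over 13756 genes. Adjusted p-values are Benjamini-Hochberg values over all of those genes. Pparg itself was higher and not lower in the Cre group, at 279, 267, 269 and 320.1 CPM in mice 1 to 4 against 201, 199.7, 186 and 202 CPM in the controls (log2 fold change 0.52 ± 0.09, edgeR adjusted p = 0.0328, 0.0505 to 0.119 with any 1 library left out). Reads from exons that are not floxed enter the gene's count too. As the direction goes against the label, the second group is called the libraries labelled knockout, and directions rest on the labels as given. Myl1 stood at 367 ± 105 CPM there and 378 ± 68.8 CPM in the control. Brown fat markers such as Ucp1 and Adipoq were high in all 8 libraries, with a mean log2 CPM over 16 markers between 8.81 and 9.40.

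Because the MiT/TFE factors read E-boxes, the promoters of the members were searched for the letters CACGTG, which read the same on both strands. RefSeq promoter windows (GRCm38.p6, 250 bases before to 50 after each start) were found for 30 of the 35 members, 37 windows in all, and 10 windows (27.0%) of 10 genes held the motif. Among all 32851 windows of the same length the share was 7.15%, among those of the tested genes 9.87%, and among those of the other lysosome and autophagy genes described further on 19.9%. With a T before the motif on either strand (TCACGTG or CACGTGA, a subset of the same sites) the shares were 21.6% of member windows, 3.77% of all windows, 5.87% of those of the tested genes and 18.4% of those of the other lysosome and autophagy genes. The full CLEAR consensus of 10 bases, which adds GT before and AC after the E-box, was in 0 of the 37 member windows, in 0.326% of all windows and in 6 of the 201 windows of those other genes. A match is a run of letters and no proof of binding, and a missing match speaks only of this window.

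The E-boxes stood in 6 of 15 matched hydrolase and cofactor genes (Ctsa, Ctsd, Ctsl, Gaa, Gla and Glb1), in Lamp1 and Mcoln1 of the 4 membrane proteins, in 0 of the 3 transcription factors, and in Atg5 and Atg7 of 8 matched autophagy factors. The stretches below lie upstream of the RefSeq start of their window, are given 5′ to 3′ on the gene's own strand, and have each E-box in capitals. By the gene spans of GENCODE mouse release 21, those of Ctsa, Ctsd and Ctsl lie inside the gene and that of Mcoln1 partly so. The Ctsa stretch is from its second window, and its first window held no E-box. They are shown because they hold several E-boxes in one upstream stretch (Lamp1, Mcoln1 and Gla) or belong to the abundant protease Ctsd, to 2 members with some of the lowest p-values (Ctsa and Ctsl) and to the glycogen-splitting enzyme Gaa.
Lamp1, chr8:13159086-13159160, plus strand: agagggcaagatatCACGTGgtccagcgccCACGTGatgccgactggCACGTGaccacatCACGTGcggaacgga
Mcoln1, chr8:3500434-3500493, plus strand: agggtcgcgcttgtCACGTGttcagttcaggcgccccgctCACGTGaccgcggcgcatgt
Gla, chrX:134601180-134601246, minus strand: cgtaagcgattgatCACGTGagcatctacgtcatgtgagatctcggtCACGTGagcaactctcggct
Ctsd, chr7:142387906-142387939, minus strand: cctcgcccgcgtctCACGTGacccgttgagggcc
Ctsa, chr2:164833747-164833772, plus strand: aatgagcaaactgtCACGTGatgcag
Ctsl, chr13:64370737-64370770, minus strand: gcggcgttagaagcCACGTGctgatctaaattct
Gaa, chr11:119267809-119267842, plus strand: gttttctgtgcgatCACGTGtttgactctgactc
The Lamp1 stretch alone held 4 E-boxes within 75 bases, and those of Mcoln1 and Gla held 2 each. The second window of Ctsa and the window of Ctsd also held 2 E-boxes each, of which 1 is shown. The other E-box of Ctsa lies just after the RefSeq start of that window. The 10 members with an E-box had a median log2 fold change of 0.03 and the 20 without one 0.09, a description with no test.

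Per length, the members of brown fat in the cold ranged from very abundant to rare. Levels set between genes are RPKM (CPM per kilobase of annotated exons) in the control. Ctsz, a cathepsin that trims single residues from protein ends, was the highest at 660.4 ± 90.1 RPKM, above 99.6% of the tested genes. Psap, the precursor of the saposins that present lipids to their hydrolases, came next at 567 ± 26.5 RPKM, and the control ranges of these neighbours overlapped. Below a gap followed Lamp1, the major glycoprotein of the lysosomal membrane, at 368 ± 26.9 RPKM and the aspartic protease Ctsd at 354 ± 38.8 RPKM, which also overlapped. After another gap came the cysteine protease Ctsb at 179 ± 19.1 and the Atg8 genes Gabarap at 173 ± 7.68 and Map1lc3a at 155 ± 7.48 RPKM, each overlapping with its neighbour.

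The transcription factors stood lower, with Mitf, the lowest of the 35, at the other end at 0.952 ± 0.353 RPKM. Tfeb was at 3.89 ± 0.374 RPKM and Tfe3 at 3.72 ± 0.113 RPKM, above 52.3% and 51.1% of the tested genes. Low hydrolases were Gla (α-galactosidase A) at 1.23 ± 0.241, Ctsh at 1.62 ± 0.391, Glb1 (β-galactosidase) at 1.97 ± 0.475 and Ctsc at 2.27 ± 0.443 RPKM. Hydrolases and cofactors together held 66.8% of the summed RPKM of the members, autophagy factors 18.3%, membrane proteins 14.7% and transcription factors 0.291%. The length used joins the exons of all annotated transcripts. With the basic transcript set instead, a choice made after the data were seen, the same 4 genes led, 7 members moved up by more than 1.5 times and Mcoln1 the most, from 5.19 to 18.98 RPKM.

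**Figure D1:**
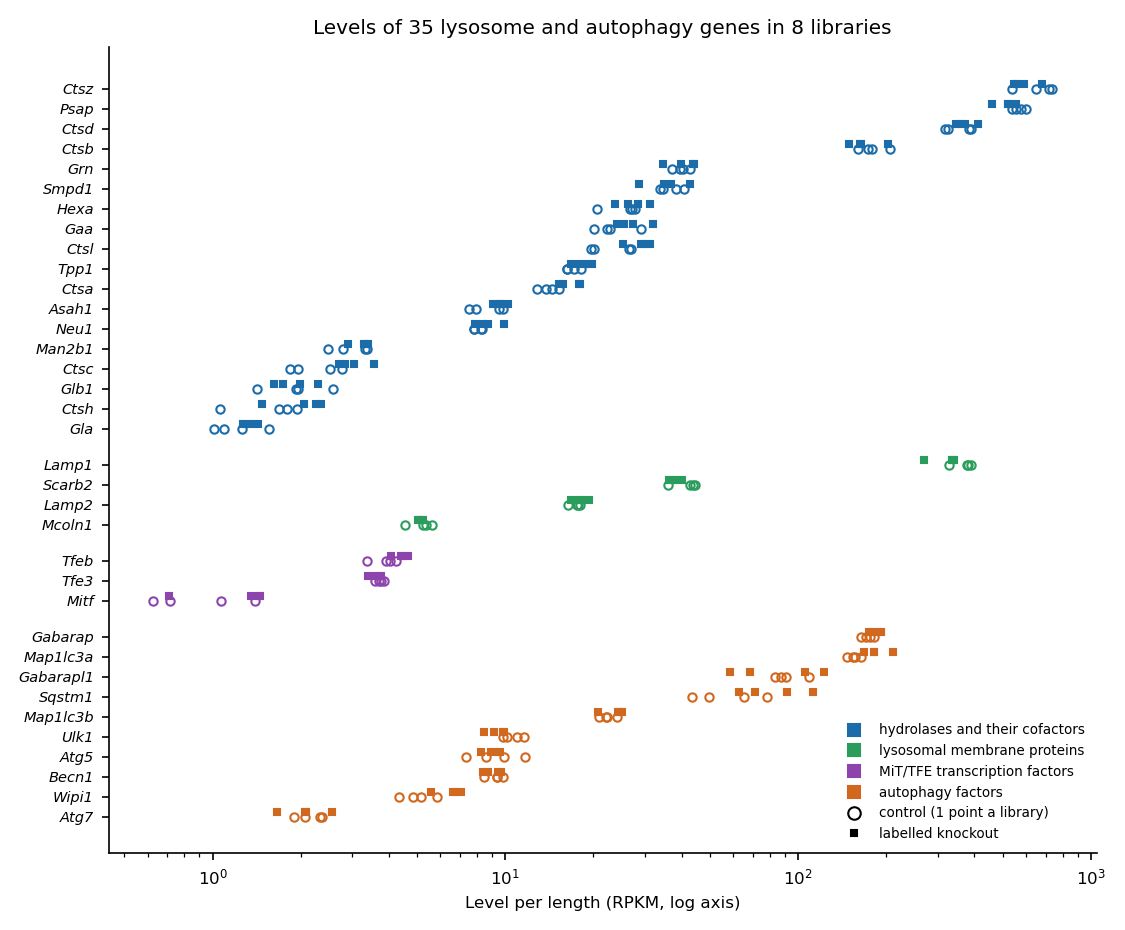
Level per length of each member in RPKM on a log axis, 1 point a library, with open circles for the 4 control and filled squares for the 4 labelled knockout libraries. Ctsz, Psap, Lamp1 and Ctsd stand at the top and Mitf at the bottom, and the 2 groups lie close together in nearly every row.

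Between the groups, 0 of the 35 members passed an adjusted p of 0.05. Over all tested genes 0.385% passed (0.291% higher and 0.0945% lower), a share at which fewer than 1 of 35 would be called. At an unadjusted p under 0.05, 6 members lay higher in the libraries labelled knockout and 0 lower: Ctsa, Ctsc and Ctsl of the hydrolases, and Sqstm1, Map1lc3a and Wipi1 of the autophagy factors. These 6 are 17.1% of the members, against 15.2% of all tested genes (8.05% higher and 7.12% lower), a share near the background. The groups did not overlap in 2 members, Ctsa and Map1lc3a, both higher, which is 5.71% against 8.1% of all genes (4.1% higher and 4% lower). Of the 35 log2 fold changes 21 lay above 0, where 50.3% of all genes did, with a median of 0.08 against 0.00.

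The size that could be missed is bounded. The 95% interval of 29 of the 35 members lay wholly within 1.5-fold either way, and those of Ctsc, Ctsh, Ctsl, Mitf, Sqstm1 and Wipi1 reached beyond it on the higher side. At the adjusted threshold, 31.3% of genes given a 1.5-fold change and 77.6% of those given a 2-fold change were found again in simulated counts of this design, so smaller changes would often go uncalled. Those genes were drawn at random from all tested genes, so the rates are not those of the members, whose replicates spread less. The count of 6 at an unadjusted p under 0.05 depended on single libraries, as did the share of all genes at that p. It was 2 without control 1, control 4 or labelled knockout 2 (10.4%, 10.9% and 13.4% of all genes). It was 3 without labelled knockout 3 (11.4%) and 4 without labelled knockout 1 (11.3%). It was 7 without control 2 or labelled knockout 4 (16.5% and 17.1%). Without control 3 there were 6 higher and 2 lower (17.4% of all genes in either direction).

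**Figure D2:**
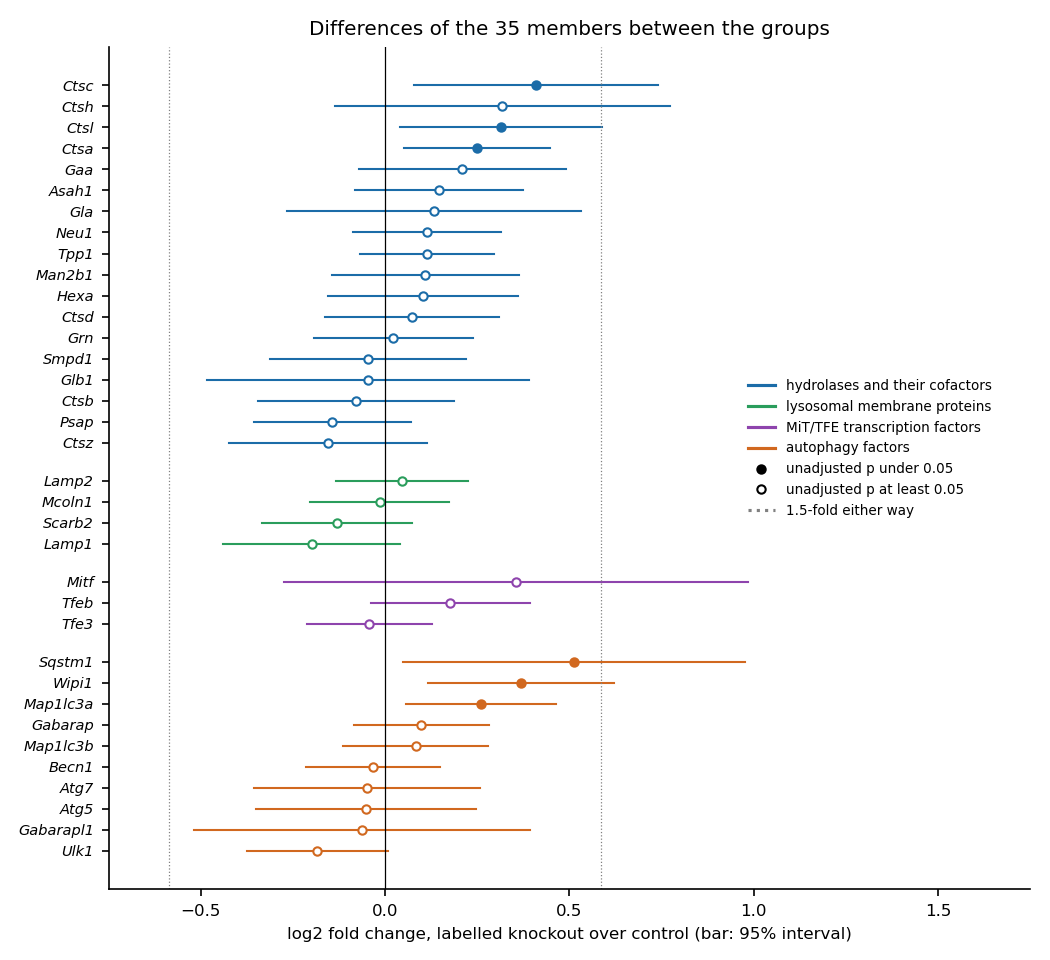
The log2 fold change of each member with its 95% interval (bars), by class, with filled points for an unadjusted p under 0.05 and dotted lines at 1.5-fold. All 6 filled points lie right of 0, and 29 intervals stay between the dotted lines.

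Among the 18 hydrolases and cofactors 13 lay above 0 and 5 below, around a median of 0.11 (log2 fold change), and they ranged from -0.15 for Ctsz to 0.41 for Ctsc. Ctsa (ENSMUSG00000017760, chromosome 2, 164832873 to 164841032, plus strand, GRCm38) encodes cathepsin A, which also shields β-galactosidase and the sialidase NEU1 from breakdown. It stood at 60.6, 71.8, 67.98 and 64.7 CPM in controls 1 to 4 and at 72.1, 84.8, 84.1 and 74.2 CPM in labelled knockouts 1 to 4. All 4 of the latter lay above all controls, the nearest pair by a narrow margin, with a log2 fold change of 0.25 ± 0.09 (unadjusted p = 0.0177, edgeR adjusted p = 0.238). Its partner genes gave 0.11 ± 0.09 for Neu1 and -0.05 ± 0.20 for Glb1.

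Ctsc (ENSMUSG00000030560, chromosome 7, 88278085 to 88310888, plus strand), whose protease activates the granule proteases of immune cells, had 10.7, 16.03, 14.7 and 11.3 CPM in the controls and 20.6, 17.7, 16.4 and 15.7 CPM in the labelled knockouts. Control 2 lay above the lowest labelled knockout library, so the groups touched, and the log2 fold change was 0.41 ± 0.15 (unadjusted p = 0.0195, edgeR adjusted p = 0.249). For Ctsl (ENSMUSG00000021477, chromosome 13, 64359337 to 64370890, minus strand), a cysteine endopeptidase, the levels were 131, 174, 171 and 127 CPM and 189, 203, 194 and 164 CPM. Labelled knockout 4 fell within the control range, and the log2 fold change was 0.31 ± 0.12 (unadjusted p = 0.0281, adjusted p = 0.273 with edgeR). Gaa, the acid α-glucosidase that breaks down glycogen in the lysosome, had 96.3, 139, 106 and 109 CPM in the controls and 122, 153, 131 and 115 CPM in the labelled knockouts. Its groups overlapped broadly, at a log2 fold change of 0.21 ± 0.13.

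The abundant hydrolase genes differed little. Ctsz had 1059.8, 773, 938 and 1035 CPM in the controls and 805, 788, 848 and 980.1 CPM in the labelled knockouts, a log2 fold change of -0.15 ± 0.12 with a 95% interval of -0.42 to 0.11. Psap was at 1589, 1522, 1476 and 1641 CPM against 1261, 1519, 1428 and 1433 CPM, and its interval ran from -0.36 to 0.07. Ctsd was at 918, 762, 746 and 904 CPM against 874, 813, 848 and 967 CPM, with an interval of -0.16 to 0.31. In all 3 the groups overlapped, and no interval reached a change of 1.5-fold. Of the 7 cathepsin genes among the members, Ctsz made up 53.4% ± 2.57 of the summed RPKM in the control and 49.99% ± 0.750 in the labelled knockouts (SD, n = 4). Ctsd made up 28.7% ± 1.25 and 31.4% ± 1.02.

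The remaining hydrolases and cofactors are given by their log2 fold changes. Ctsb was at -0.08 ± 0.12, Ctsh at 0.32 ± 0.21, Gla at 0.13 ± 0.18, Hexa (the α subunit of β-hexosaminidase) at 0.10 ± 0.12 and Man2b1 (lysosomal α-mannosidase) at 0.11 ± 0.12. The sphingolipid enzymes Asah1 (acid ceramidase) and Smpd1 (acid sphingomyelinase) had 0.15 ± 0.10 and -0.05 ± 0.12, the peptidase Tpp1 0.11 ± 0.08, and Grn, which encodes progranulin, 0.02 ± 0.10. The unadjusted edgeR p-values of these 9 ran from 0.152 for Ctsh to 0.821 for Grn.

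Of the 4 lysosomal membrane proteins 0 reached an unadjusted p of 0.05, and their median log2 fold change was -0.07. Lamp1 (ENSMUSG00000031447, chromosome 8, 13159161 to 13175338, plus strand) had 1014, 1038, 878 and 1007 CPM in the controls and 717, 906, 897 and 909 CPM in the labelled knockouts. Labelled knockout 1 stood apart below the other 7 libraries and the rest overlapped, so that the log2 fold change of -0.20 ± 0.11 (unadjusted p = 0.0936, edgeR adjusted p = 0.41) became -0.12 without that library. Lamp2, its sister protein and the receptor of chaperone-mediated autophagy in one splice form, was at 169.8, 172, 156 and 168 CPM and 170.3, 173, 184 and 160.4 CPM. The level was nearly flat over the 8 libraries, with an interval of -0.13 to 0.22.

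Scarb2 encodes LIMP-2, the carrier of glucocerebrosidase to the lysosome. It had 279, 269, 226 and 275 CPM in the controls and 228, 244, 252 and 235 CPM in the labelled knockouts, and control 3 alone among the controls fell below the labelled knockouts, at a log2 fold change of -0.13 ± 0.09. Mcoln1, the calcium channel of the lysosomal membrane that can set TFEB free through calcineurin, was at 40.4, 34.3, 39.6 and 42.5 CPM and 38.1, 38.2, 39.1 and 39.6 CPM. The labelled knockout values lay inside the control range, with an interval of -0.20 to 0.17.

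The MiT/TFE transcription factor genes did not pass either. Tfeb (ENSMUSG00000023990, chromosome 17, 47737030 to 47792419, plus strand) had 19.1, 22.9, 22.2 and 24.02 CPM in the controls and 26.5, 23.02, 25.3 and 25.01 CPM in the labelled knockouts. The highest control lay above the lowest labelled knockout library, and the log2 fold change was 0.18 ± 0.10 (unadjusted p = 0.0995, adjusted p = 0.416 with edgeR). Tfe3 was the steadiest of all members, at 34.2, 33.1, 34.7 and 35.6 CPM and 34.4, 34.8, 31.4 and 33.1 CPM, with 1.13-fold between its highest and lowest library and an interval of -0.21 to 0.13. Mitf, by contrast, had 3.89, 8.67, 6.61 and 4.42 CPM in the controls and 8.38, 8.90, 8.97 and 4.39 CPM in the labelled knockouts. It was low in controls 1 and 4 and in labelled knockout 4 and higher in the others, so its interval of -0.27 to 0.99 bounds little. RNA levels say nothing of where these proteins sit in the cell, which is how mTORC1 controls them.

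Among the 10 autophagy factors 5 lay above 0 and 5 below, with a median of 0.03. Wipi1 (ENSMUSG00000041895, chromosome 11, 109573331 to 109611967, minus strand), which binds the phosphoinositide of the forming autophagosome, had the lowest p of the 35 members. It stood at 19.2, 25.8, 22.8 and 21.3 CPM in the controls and 29.2, 31.1, 30.2 and 24.6 CPM in the labelled knockouts. Labelled knockouts 1 to 3 lay above all controls and labelled knockout 4 below control 2, with a log2 fold change of 0.37 ± 0.11 (unadjusted p = 0.0083, edgeR adjusted p = 0.189). The unadjusted p stayed under 0.05 in all 8 fits that left out 1 library, where the log2 fold change was 0.30 to 0.44.

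Sqstm1 (ENSMUSG00000015837, chromosome 11, 50199366 to 50210827, minus strand) encodes p62, the receptor that tethers ubiquitinated cargo to LC3, and it had the largest log2 fold change of the members. Its levels were 146, 263, 219.7 and 166 CPM in the controls and 239, 377, 307 and 211 CPM in the labelled knockouts. Mice 2 and 3 were the highest in each group, although the numbers have no stated pairing. Control 2 exceeded labelled knockouts 1 and 4, and the 2.58-fold span over the 8 libraries was the widest of the 35. The log2 fold change was 0.51 ± 0.21 (unadjusted p = 0.0331, edgeR adjusted p = 0.287). It went from 0.51 to 0.09 (unadjusted p = 0.626) when the skeletal muscle score of each library entered the edgeR fit as a covariate. That score was itself higher in the labelled knockouts (mean 8.82 against 8.10), so the covariate can also take up part of a group difference.

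Of the 4 Atg8 genes, 1 had groups that did not overlap. Map1lc3a (ENSMUSG00000027602, chromosome 2, 155276297 to 155278073, plus strand), which encodes LC3A, had 194, 181, 184 and 173 CPM in the controls and 199, 249.99, 214 and 214 CPM in the labelled knockouts. The groups did not overlap, with control 1 just below labelled knockout 1, at a log2 fold change of 0.26 ± 0.09 (unadjusted p = 0.0171, edgeR adjusted p = 0.234). No other member kept an unadjusted p under 0.05 once the muscle score was a covariate, where Map1lc3a had a log2 fold change of 0.28 (edgeR adjusted p = 0.505). Gabarap was at 334, 301, 324 and 313 CPM and 331, 322, 355 and 355 CPM, close together in all 8 libraries. Gabarapl1 was at 168, 219, 176 and 183 CPM and 118, 247, 212 and 137 CPM, with the labelled knockouts on both sides of the control range. Map1lc3b, the gene of the widely used autophagosome marker LC3B, had a log2 fold change of 0.08 ± 0.09. Map1lc3a made up 35.03% ± 1.16 of the summed RPKM of these 4 genes in the control and 38.5% ± 1.70 in the labelled knockouts, and Map1lc3b 5.04% ± 0.301 and 4.90% ± 0.215 (SD, n = 4). The sum leaves out Gabarapl2, an Atg8 gene outside the members, which stood at 35.3 ± 2.50 RPKM in the control. Per length Map1lc3a was thus far above Map1lc3b, also with the basic transcript set (30.8% and 6.04% of the control sum). In CPM the control means were close, at 183 for Map1lc3a and 167 for Map1lc3b. The gap per length therefore rests on the exon lengths used, 1181 and 7517 bases, or 1112 and 5182 bases in the basic set. Which transcripts of these genes the tissue makes was not tested.

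Ulk1, the kinase that starts autophagy and is held in check by mTORC1, was at 65.8, 70.9, 63.6 and 75.2 CPM in the controls and 54.9, 59.5, 64.1 and 63.9 CPM in the labelled knockouts. The highest labelled knockout values lay just above the lowest control, with a log2 fold change of -0.18 ± 0.09 (unadjusted p = 0.0576, edgeR adjusted p = 0.343). Becn1, part of the lipid kinase complex that seeds the membrane, had -0.03 ± 0.08, and Atg5 and Atg7, which attach Atg8 proteins to lipid, had -0.05 ± 0.14 and -0.05 ± 0.14. The intervals of these 3 stayed within 1.5-fold.

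**Figure D3:**
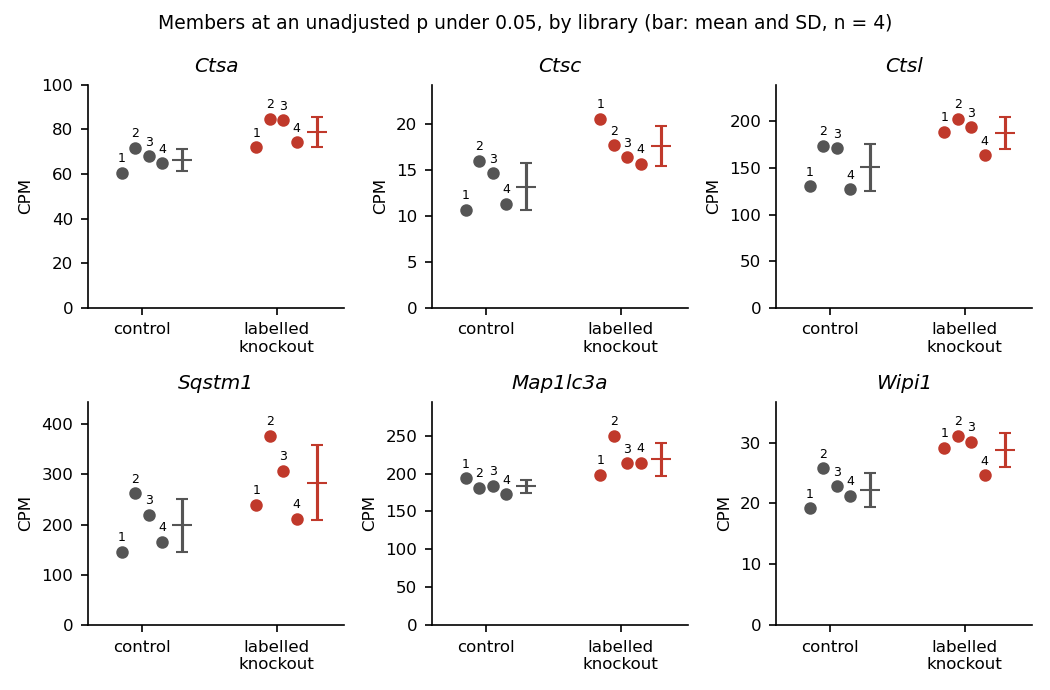
CPM of the 6 members at an unadjusted p under 0.05, 1 point a library with the mouse number beside it, and mean with SD (n = 4) at the side, on axes that start at 0. The groups do not overlap for Ctsa and Map1lc3a, each by a narrow margin, and overlap for Ctsc, Ctsl, Sqstm1 and Wipi1.

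Marker genes of cell types were read from the same fit, and of them Pparg alone passed an adjusted p of 0.05. The lowest edgeR adjusted p was 0.16 among the macrophage and 0.128 among the skeletal muscle markers. In a tissue sample, a change in the number of cells of a type and a change in RNA per cell cannot be told apart. Of 25 measured macrophage markers 24 lay above 0 (median 0.42 on the log2 scale). At an unadjusted edgeR p under 0.05, 5 were higher and 0 lower, which is 20% against 15.2% of all genes in either direction. Their mean log2 CPM was 1.84, 2.42, 2.14 and 2.11 in controls 1 to 4 and 2.82, 2.78, 2.47 and 2.16 in labelled knockouts 1 to 4, and their summed level was 158 to 223 CPM and 172 to 295 CPM, with no marker at 0 in all libraries. Control 1 and labelled knockout 4 had the lowest of these scores in their groups. Of the 35 members, 7 were lowest of their group in both (20% against 12.4% of all genes), Ctsc among them. The other way, 5 were highest of their group in both (14.3% against 11.1%), with Ctsb, Ctsd and Ctsz among them. All 32 skeletal muscle markers lay above 0, with a median of 0.71 (0.47 without control 1), and 20 of them had an unadjusted p under 0.05, a count between 10 and 30 with 1 library left out. Their mean log2 CPM was 7.29, 8.70, 8.13 and 8.27 in the controls and 8.99, 9.09, 9.04 and 8.17 in the labelled knockouts. Of 16 brown fat markers 13 lay below 0, with a median of -0.34, 6 had an unadjusted p under 0.05 on the lower side (3 without control 1, 10 without labelled knockout 4), and Pparg was 1 of the 3 above 0. Of 12 neutrophil and mast cell markers 3 were high enough to test and of 12 lymphocyte markers 2. The 12 blood and endothelial markers, a mixed list, had a median of -0.05 and ranged from -1.01 to 0.13. Of these 8 lay below 0, and 2 were lower at an unadjusted edgeR p under 0.05 (16.7%). With the muscle score as covariate, the macrophage median was 0.076, with 16 of 25 above 0 and 0 at an unadjusted p under 0.05. The 5 macrophage markers numbered 13 when control 2 was left out, 11 when labelled knockout 4 was, and 3 when the library left out was control 1, control 4, labelled knockout 1 or labelled knockout 2. What part these cell types have in the values of the members was not tested.

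Control 1 and labelled knockout 4 had the lowest muscle scores of their groups. Some members were lowest and some highest in that pair of libraries, and most were neither. Ctsc, Gaa, Glb1, Neu1, Mitf, Sqstm1 and Wipi1 were lowest of their group in both, 7 of the 35 or 20%, against 12.4% of all tested genes. Ctsb, Ctsd, Ctsz, Gabarap and Atg5 were highest of their group in both, 14.3% against 11.1% of all genes. The pattern was looked for after the values were seen and is a description. Once the muscle score was a covariate, the log2 fold change of Ctsl went from 0.31 to 0.12, that of Ctsc from 0.41 to 0.19, that of Wipi1 from 0.37 to 0.15 and that of Ctsa from 0.25 to 0.14. All 4 then had an unadjusted edgeR p above 0.05. Over all tested genes the share at an unadjusted p under 0.05 went from 15.2% to 9.23% with this covariate. As the muscle score differed between the groups, this fit cannot part the score from the genotype.

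**Figure D4:**
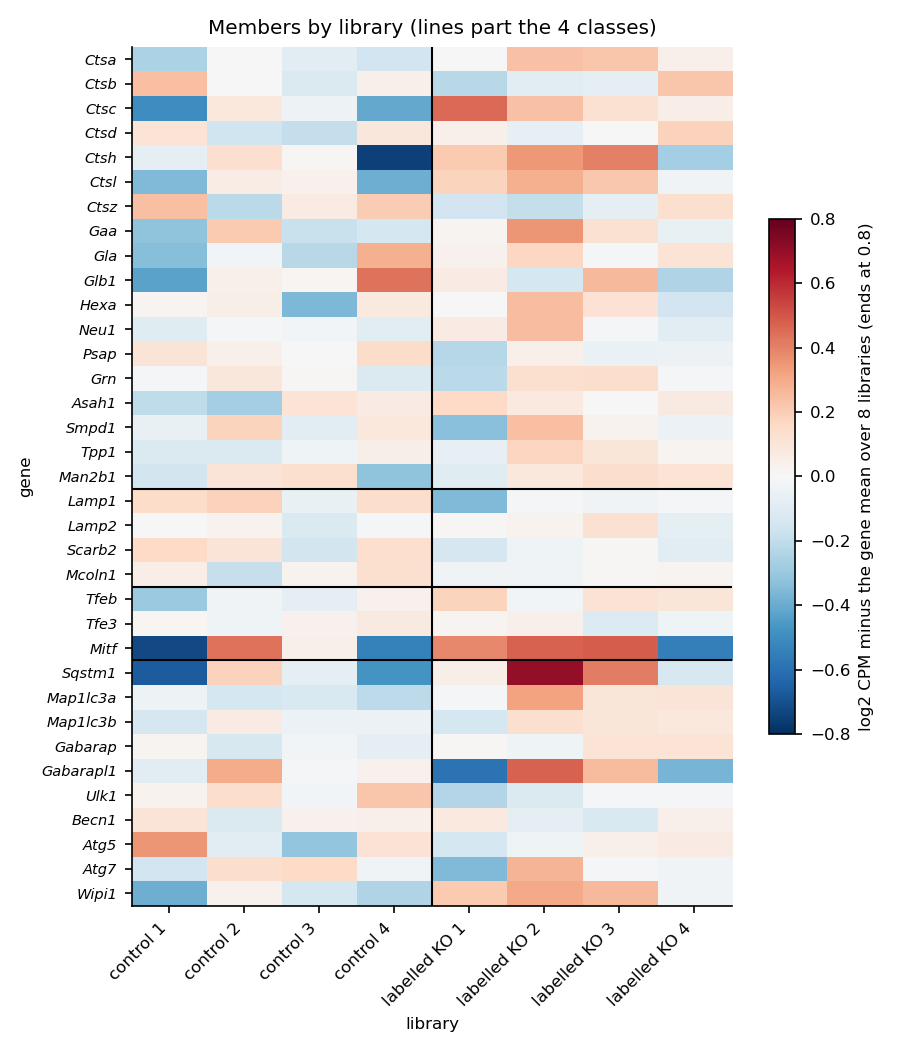
Log2 CPM of each member in each library minus its mean over the 8 libraries, red for higher and blue for lower, with lines between the 4 classes and the 2 groups. Mitf, Sqstm1, Ctsc and Wipi1 are bluest in control 1, and the labelled knockout libraries differ among themselves in Gabarapl1, Mitf and Sqstm1.

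A further 208 genes of the pathway, in 6 lists, were read from the same fit, and 197 of them were tested. Of these 1 was lower and 0 were higher at an adjusted p of 0.05. At an unadjusted p under 0.05 there were 18 higher and 24 lower, or 21.3% against 15.2% of all genes, and 11 higher and 15 lower had groups that did not overlap (13.2% against 8.1%). Their median log2 fold change was -0.03. The 1 gene past the threshold was Lipa, whose lysosomal acid lipase frees fatty acids from lipid taken into the lysosome. It was at 240.4, 189, 186 and 221 CPM in the controls and 119, 134, 137 and 135 CPM in the labelled knockouts, with all 4 of the latter well below all controls and a log2 fold change of -0.67 ± 0.10 (edgeR adjusted p = 0.0183). The call was lost without control 4 or without any 1 labelled knockout library, with adjusted p up to 0.0812, and also once the muscle score was a covariate (0.175). The log2 fold change itself stayed at -0.73 to -0.60 with 1 library left out and was -0.55 with the covariate (unadjusted p = 0.000705, edgeR).

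Of the 44 other lysosomal hydrolases and cofactors tested, Lipa among them, 4 lay higher and 3 lower at an unadjusted p under 0.05. In the list of membrane proteins and transporters (37 tested) 5 lay higher and 6 lower. The lowest p-values there were of Cd68, a lysosomal glycoprotein of macrophages that is also 1 of the macrophage markers, at 9.18 ± 2.71 against 4.81 ± 1.56 CPM (log2 fold change 0.93 ± 0.26, edgeR adjusted p = 0.16, and 0.0372 with DESeq2), and of the amino acid transporter gene Slc36a1 (-0.38 ± 0.12). Of 19 V-ATPase subunits, the pump that acidifies the lysosome, 2 lay higher and 2 lower, led by Atp6v0a2 (-0.37 ± 0.11) and Atp6v1g1 (0.32 ± 0.11). Among 21 sorting genes 2 lay higher and 1 lower, led by Gnptg (0.32 ± 0.10), a subunit of the enzyme that tags hydrolases with mannose-6-phosphate, and by the sorting receptor gene Sort1 (-0.37 ± 0.12). Of 24 regulators of mTORC1 and TFEB 2 lay higher and 2 lower, led by the Rag GTPase gene Rragd (0.70 ± 0.26, and 0.00252 with the muscle covariate) and the calcineurin gene Ppp3ca (0.22 ± 0.09). None of the genes named after Lipa passed an adjusted p of 0.05 in the edgeR fit. The shares at an unadjusted p under 0.05 were 15.9% of these hydrolases and cofactors and 29.7% of the membrane proteins and transporters. They were 21.1% of the V-ATPase subunits, 14.3% of the sorting genes and 16.7% of the regulators. Over all tested genes the share was 15.2% (8.05% higher and 7.12% lower).

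Among the remaining autophagy factors more genes lay below 0 than above, and the difference from the members was not tested. Of 52 tested, 20 lay above 0 and 32 below, with a median of -0.07. At an unadjusted p under 0.05, 3 were higher and 10 lower, against a background of 8.05% higher and 7.12% lower of all genes, and 0 passed the adjusted threshold. Groups that did not overlap occurred in 2 on the higher side and 9 on the lower, where the background is 4.1% and 4%. The lowest p belonged to Ncoa4, the receptor that brings ferritin to the autophagosome, with 61.2, 57.1, 33.95 and 53.97 CPM in the controls and 27.2, 38.3, 34.8 and 33.2 CPM in the labelled knockouts. Control 3 lay within the labelled knockout range, and the log2 fold change was -0.63 ± 0.17 (edgeR adjusted p = 0.148, and 0.0364 with DESeq2). Without control 3 the Ncoa4 log2 fold change was -0.78 (edgeR adjusted p = 0.0235), and when low counts were not filtered the adjusted p became 0.0465, while with the other single libraries left out it reached 0.336. Trp53inp1, a stress-induced partner of the Atg8 proteins, was on the higher side (0.44 ± 0.12, edgeR adjusted p = 0.16).

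The other 9 on the lower side were chosen for naming after their values were seen. They were Wipi2 (-0.31 ± 0.10) and Wdr45b (-0.24 ± 0.08), relatives of Wipi1, the lysosome tethers Tecpr1 (-0.50 ± 0.16) and Plekhm1 (-0.22 ± 0.08), the fusion proteins Stx17 (-0.22 ± 0.08) and Snap29 (-0.24 ± 0.10), the mitophagy receptors Bnip3l (-0.21 ± 0.08) and Optn (-0.19 ± 0.08), and the protease Atg4d (-0.23 ± 0.09). Their edgeR adjusted p ran from 0.204 for Wipi2 to 0.296 for Snap29. Vamp8, also a fusion protein and named in the same way, lay on the higher side. Its log2 fold change was 0.15 to 0.24 over the 18 alternative fits, and it did not pass an adjusted p of 0.05 in any. The count of 10 on the lower side was 5 with total count scaling, 5 with a muscle score covariate, and 6 without control 1 or without control 4. It was 7 to 10 in the rest. Over all genes, the share at that p in either direction was 14.5%, 9.23%, 10.4% and 10.9% in the fits named, against 15.2% in the main fit. Whether the drops are particular to these genes was not tested. Wipi1 and its relative Wipi2 thus had unadjusted p-values under 0.05 in opposite directions, while neither passed over all genes.

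**Figure D5:**
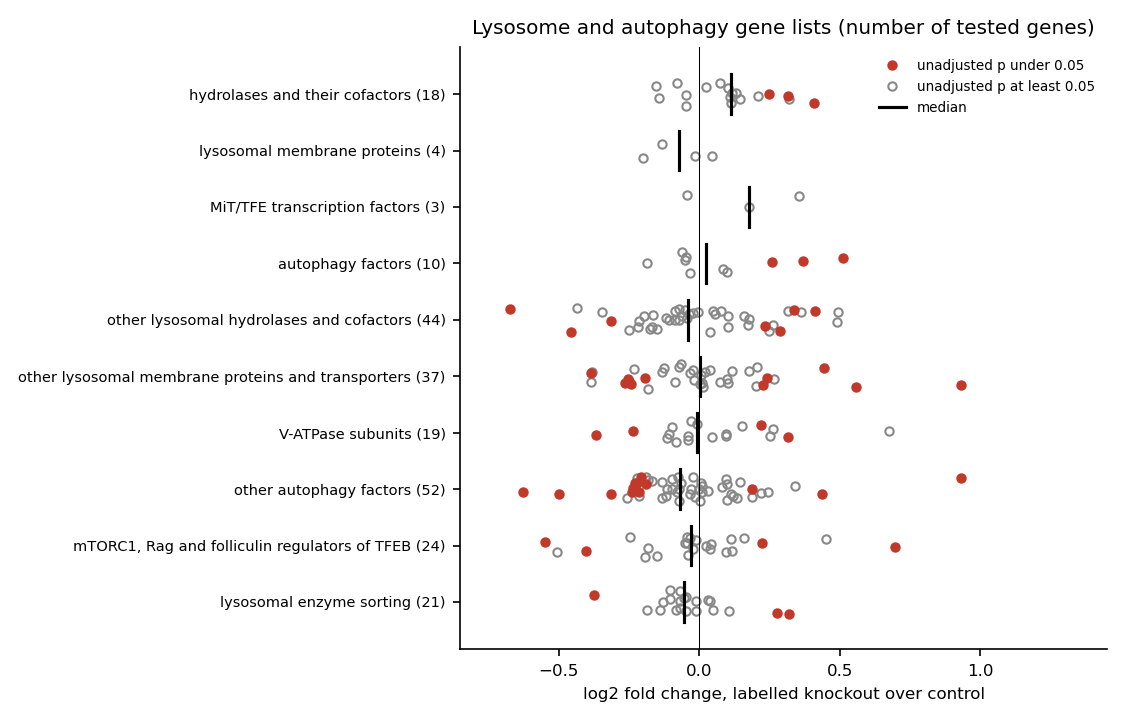
Log2 fold change of every tested gene in the 4 classes of members and the 6 further lists, with red points for an unadjusted p under 0.05 and a black bar for the median. The leftmost point is Lipa at -0.67, and the medians of the 10 lists lie between -0.07 and 0.18.

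In GENCODE mouse release 21, 11 members share exonic sequence with an antisense gene, Ctsa, Ctsl, Lamp1 and Sqstm1 among them, and those of 3 members (Ctsd, Ctsl and Glb1) overlap a gene on the same strand. How the counting treated strand was not given in the sources used here, which leaves the values of these genes uncertain. Spread between replicates was modest, with a median coefficient of variation over the members of 10.04% in the control and 8.96% in the labelled knockouts, against 14.04% and 13.3% over all tested genes, and the lowest count of any member in any library was 44.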

How the data were processed

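The deposited table holds whole-number read counts per gene with no normalization, 1 column a mouse, and its columns were matched to the samples by genotype and mouse number. Per the labels' protocols the libraries are stranded mRNA libraries, and the reads were mapped to GRCm38 and counted with a chain that the submitters' processing notes list as HISAT2, featureCounts (Subread), SAMtools, Trimmomatic and FastQC. Versions, order, settings and the gene annotation were not given in the sources used here.

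Members and lists were chosen with earlier results of these data known. Counts were filtered with filterByExpr, scaled with TMM and tested with edgeR 4.0.16 (limma 3.58.1, R 4.3.3) on the genotype with all 8 libraries. Each SE is |log2 fold change| over the root of F, and intervals use the test's degrees of freedom. Named by rule were members past 0.05 or without overlap, the 4 lowest p and 3 highest RPKM per class, whole classes under 5, and per further list the genes past 0.05 or the 2 lowest p. Positions and exon lengths came from GENCODE mouse release 21, which held 99.9% of the IDs. A list's score is its genes' average log2 CPM (prior count 2). In the fit tested on simulated data (13573 genes) 6.99% of calls were false. Libraries of a group all differed by more than sampling noise (chi-square over degrees of freedom 10.4 to 52.95). Other settings tried were limma-voom, DESeq2 1.42.0, 3 further scalings, 2 further filters, a robust dispersion, a block for the mouse number, a covariate for muscle and each library left out. Protein sequences were not used here.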

Additional observations from a re-analysis of the deposited data

Results flagged for a closer look

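In each group of 4 libraries the members were checked for a library far from the others with Dixon's ratio at its 95% critical value, which chance passes in about 1 of 20 groups. Of 70 groups 3 were picked out (4.29%). Lamp1 was at 717 CPM in labelled knockout 1 against 897 to 909 CPM in the other 3 of its group. Mitf was at 4.39 CPM in labelled knockout 4 against 8.38 to 8.97 CPM. Hexa was at 40.96 CPM in control 3 against 53.2 to 55.5 CPM.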

How the results depend on the processing

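Across 18 alternatives, 0 of the 35 members passed an adjusted p of 0.05 in 17, and 1 did with the mouse number as a replicate block, Sqstm1 (log2 fold change 0.52, edgeR adjusted p = 0.0428). The numbers have no stated pairing: same-numbered libraries deviated together with correlations of 0.02, 0.40, 0.03 and 0.17, and control 1 correlated best with labelled knockout 4. At an adjusted p under 0.10 the count of members was 0, and at an unadjusted p under 0.05 it was 6. The count of all genes called was 53, and it was 362 with DESeq2, 187 with no filter, 155 with the block, 25 with the muscle covariate and 24 to 75 with 1 library left out. The following 3 class medians moved by less than the spread between replicates, from 0.06 to 0.15 for hydrolases, -0.10 to -0.03 for membrane proteins and 0.02 to 0.10 for autophagy factors. The median of the 3 MiT/TFE factors was 0.18 and moved by more, to -0.040 with the muscle covariate, and was 0.11 to 0.22 otherwise.

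Sign changed in 25 of 630 member values, in 12 of the 35 members, none of them called. With the muscle covariate the log2 fold changes were 0.13 for Atg5, 0.061 for Becn1, 0.10 for Ctsb, 0.055 for Ctsz, -0.021 for Gaa, -0.019 for Grn, 0.057 for Mcoln1 and -0.27 for Mitf. With total count scaling they were 0.00666 for Becn1 and 0.024 for Mcoln1. With 1 library left out they ranged over -0.15 to 0.070 for Atg5, -0.16 to 0.046 for Atg7, -0.080 to 0.00085 for Becn1 and -0.26 to 0.093 for Gabarapl1. The ranges were -0.17 to 0.10 for Glb1, -0.019 to 0.093 for Grn, -0.080 to 0.024 for Mcoln1 and -0.14 to 0.047 for Smpd1. Myl1, which is not a member and not in these counts, ranged over -0.22 to 0.12. The causes were not tested.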

Other observations

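Among the genes of mTORC1, the complex that holds TFEB in the cytoplasm, Deptor and Mtor had an unadjusted p under 0.05. Deptor, an inhibitor bound to the kinase, was at 527, 313, 244 and 444 CPM in the controls and 290.04, 195, 212 and 348 CPM in the labelled knockouts, a log2 fold change of -0.55 ± 0.24 (unadjusted p = 0.046, edgeR adjusted p = 0.318). Mtor, the kinase itself, was at 254, 195, 171 and 271 CPM and 146, 158, 158 and 212 CPM (-0.40 ± 0.16, unadjusted p = 0.0301, edgeR adjusted p = 0.275). In both genes controls 1 and 4 were the highest libraries of all 8, and labelled knockout 4 was the highest of its group. Once the muscle score was a covariate, the values were -0.13 and -0.18. Retreg1, a receptor for autophagy of the endoplasmic reticulum, had the opposite order of libraries, at 25.8, 107, 75.6 and 34.5 CPM and 97.6, 161, 146 and 60.5 CPM. Its log2 fold change of 0.93 ± 0.42 (unadjusted p = 0.0476, edgeR adjusted p = 0.322) became 0.02 with that covariate, and 1.36 at most and 0.68 at least with 1 library left out. With the mouse number as a block its edgeR adjusted p was 0.0347, past the threshold. These 3 genes were chosen after their values were seen.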
